A study of Drosophila melanogaster with 18 samples.

Results

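The deubiquitinase (DUB) module of the SAGA coactivator complex was followed through 4 genes of the 15682 in the ovary RNA table: not, Atxn7, Sgf11 and e(y)2. They were chosen by name as the known subunits of the module, with earlier results of these data known, and matched through their FlyBase identifiers. All 4 passed the minimum mean level of 1 RPKM (reads scaled to gene length and library size) in every comparison. Ovary polyA RNA was sequenced in 3 separate experiments. Each experiment compared 3 libraries of ovaries with a mutant germline, genotype ada2b, ataxin7 or nonstop, with 3 libraries of its own wild-type FRT control. Germline clones are homozygous mutant germ cells produced by recombination at FRT sites, and the somatic follicle cells that surround them are not part of the clone. All 6 groups, controls included, were kept at 25 °C, heat shocked as larvae for 2 h at 37 °C on 2 days, and given yeast as females for 2 to 3 days before dissection. The alleles, the recombined chromosome arms and the age of the flies are not given in the sources used here.

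SAGA carries a pair of opposing enzyme activities, the acetyltransferase Gcn5 and a ubiquitin protease that takes ubiquitin off histone H2B. Non-stop, the product of not, is that protease (USP22 in human), and it is active only when bound to Sgf11 and E(y)2. Atxn7 anchors the module to the rest of SAGA, and expansion of a glutamine tract in human ATXN7 causes a spinocerebellar ataxia. E(y)2 is also a subunit of the TREX-2 mRNA export complex, and Non-stop and Atxn7 each have roles outside SAGA. Ubiquitin on H2B accompanies transcription, and its removal by SAGA is part of the cycle of gene activation.

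The members are spread over 3 chromosomes, with not and Sgf11 near each other. In the BDGP6.54 annotation, not (FBgn0013717) lies on chromosome arm 3L from 18618305 to 18622129 on the minus strand. It has 3 annotated transcripts of 5 exons each, which encode proteins of 496 to 703 amino acids. Sgf11 (FBgn0036804) lies on the same arm and strand from 18681037 to 18681836, a single exon that encodes 196 amino acids. The pair are 58907 bases apart, with 8 annotated genes between them. Atxn7 (FBgn0031420) lies on 2L from 2375841 to 2380506 on the plus strand, and its 4 transcripts of 3 exons all encode 971 amino acids. The smallest member, e(y)2 (FBgn0000618), lies on X from 11576118 to 11576620 on the minus strand, a single exon that encodes 101 amino acids. Its last 35 bp overlap CG11696 on the opposite strand, and a tRNA gene of 72 bp lies inside not on the opposite strand with at most 1 read in any library. Atxn7 and Sgf11 overlap no annotated gene.

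Reads on genes ranged from 22608642 to 42020556 per library, which put 194 to 2441 reads on each member. The library with the fewest reads, ada2b mutant replicate 1, had 19.0% of them on the mitochondrial gene mt:lrRNA, against 2.31% to 8.89% elsewhere. The ada2b ovaries also differed from their control in cell type markers: all 9 chorion genes fell, with a summed level of 962.5 to 2830 RPKM against 20075 to 22644 RPKM, and all 7 muscle markers found in the table rose, from 18.8 to 35.7 RPKM up to 191 to 316 RPKM. Summed germline markers (6 of 8 listed genes were matched, all but vas and nos) were at 187 to 265 RPKM in ada2b ovaries and 364 to 397 RPKM in their control. Of these 6, 3 were called lower and 1 higher, against 42.3% of all tested genes called lower. Under a common median or quantile normalization 3 were lower and 2 higher. Follicle cell markers rose (3 of 3 tested), from 36.3 to 38.6 RPKM up to 64.5 to 95.5 RPKM summed over 5 genes. Of 7 vitelline membrane genes 2 were called lower. The summed level of all 7 overlapped, at 11203 to 15848 RPKM in ada2b ovaries against 13119 to 17962 RPKM in their control. In the Ataxin-7 experiment, 5 of 5 tested muscle markers rose, from 32.2 to 45.9 RPKM up to 62.9 to 86.9 RPKM summed, and 4 of 9 chorion genes fell, with a summed level of 15760 to 18082 RPKM against 21968 to 24016 RPKM. Of all tested genes 44.3% were called there. In the non-stop experiment, where 50.8% of all tested genes were called, 2 of 9 chorion genes rose (5 under quantile normalization). Their summed level was 9069 to 11470 RPKM against 3658 to 8123 RPKM in the control. The 1 follicle cell marker tested there fell (summed over 5 genes, 8.99 to 21.4 RPKM against 24.7 to 33.1 RPKM), 3 of 6 germline markers rose and 1 fell, and none of 5 muscle markers was called. No listed marker was at 0 throughout a group. The part of these differences in the values below was not tested, and in whole ovaries fewer cells of a type and less RNA per cell cannot be told apart.

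**Figure D1:**
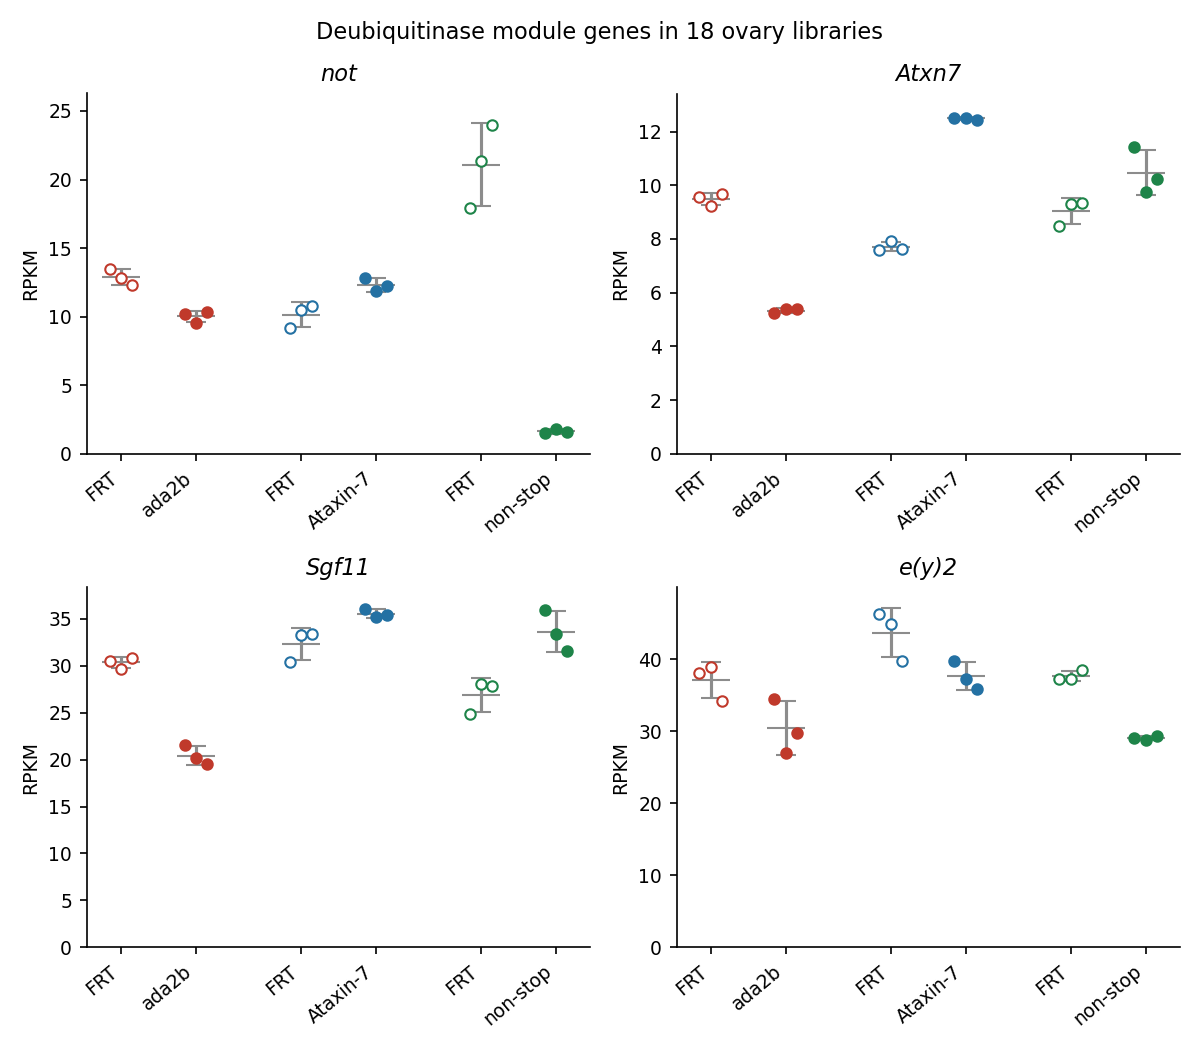
Level of each member (RPKM, linear axes from 0) in all 18 ovary libraries, with open points for FRT controls, filled points for mutants, and a grey line for the mean with its SD (n = 3). The not level in non-stop ovaries lies between 1.52 and 1.82 RPKM, below every other library, and Atxn7 is highest in the libraries labelled Ataxin-7.

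The 3 mutated genes were examined first, as a check of the labels. Of these, 2 were lower in the libraries labelled as their mutant and 1 was higher. In the non-stop experiment, not was at 17.9, 21.4 and 24.0 RPKM in the control libraries and at 1.52, 1.82 and 1.58 RPKM in the mutant libraries. The mutant libraries thus kept 7.77% of the control mean, read from 194 to 222 reads each. The change was -3.06 ± 0.11 (SE) on the log2 scale (limma adjusted p = 4.74e-06), the second lowest of 7492 tested genes. Ada2b, the SAGA adaptor that binds Gcn5, kept 16.7% of its control level in ada2b ovaries (log2 fold change -2.45, limma adjusted p = 2.75e-05).

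Atxn7 went the other way. It was at 7.59, 7.92 and 7.65 RPKM in the FRT control of the Ataxin-7 experiment and at 12.5, 12.5 and 12.4 RPKM in the libraries labelled Ataxin-7. The groups did not overlap, and the change was 0.63 ± 0.036 (SE) on the log2 scale (limma adjusted p = 4.48e-05). The table holds 1 value per gene, so exons of Atxn7 were not measured separately and its RNA level is no check of the protein. Because the targeted gene was not lower, these libraries are called by their label below.

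In ada2b ovaries every member was lower than in the FRT control. Atxn7 fell most, from 9.57, 9.23 and 9.68 RPKM to 5.24, 5.38 and 5.39 RPKM, which was -0.73 ± 0.061 (SE) on the log2 scale (limma adjusted p = 0.000122). Sgf11 fell from 30.5, 29.6 and 30.8 RPKM to 21.5, 20.2 and 19.6 RPKM, which was -0.55 ± 0.060 (SE) on the log2 scale (limma adjusted p = 0.000339). For both genes all 3 mutant libraries lay below all 3 controls. The not level went from 13.5, 12.8 and 12.3 RPKM to 10.2, 9.56 and 10.3 RPKM, which was -0.33 ± 0.066 (SE) on the log2 scale (limma adjusted p = 0.00418). For e(y)2 the groups overlapped, with 38.1, 38.8 and 34.2 RPKM in the controls and 34.4, 27.0 and 29.8 RPKM in the mutants. Its change was -0.28 ± 0.10 (SE) on the log2 scale (limma adjusted p = 0.0438), and the exact permutation p was 0.2, where 0.1 is the smallest that 3 libraries against 3 allow.

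These calls sat on a broad background. In ada2b ovaries 67.9% of 7674 tested genes were called, 42.3% were called lower, and 76.2% had mutant values apart from the control values, which 3 of the 4 members had. The median of all tested genes was -0.13. Scaling each library to a common median moved it to 0.12 and raised the share of calls that were higher from 37.7% to 59.0% (47.7% after quantile normalization). Under those scalings Atxn7 (-0.50 and -0.67) and Sgf11 (-0.29 and -0.32) were still called lower, while not (-0.087 and -0.12) and e(y)2 (-0.023 and -0.088) were no longer called. All 4 calls were also made without ada2b mutant replicate 1. The e(y)2 call alone was lost on leaving out any single FRT control, ada2b mutant replicate 2 or ada2b mutant replicate 3, with log2 fold changes of -0.34 to -0.20.

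In the libraries labelled Ataxin-7 the other members changed by less than Atxn7 itself. The not level was 9.15, 10.5 and 10.8 RPKM in the controls and 12.8, 11.9 and 12.2 RPKM in the labelled libraries, which was 0.26 ± 0.064 (SE) on the log2 scale (limma adjusted p = 0.0159). Sgf11 was at 30.4, 33.3 and 33.3 RPKM against 36.1, 35.1 and 35.3 RPKM, a log2 fold change of 0.13 (limma adjusted p = 0.0455). In contrast, e(y)2 was lower, at 39.7, 37.3 and 35.9 RPKM against 46.3, 44.8 and 39.8 RPKM in the controls, a log2 fold change of -0.21 (limma adjusted p = 0.0351). All 4 members were called and none had overlapping groups, against 44.3% of genes called and 57.2% of genes with groups apart. These counts include Atxn7, the gene the label names. Only Atxn7 was called whichever library was left out. The not call was lost without Ataxin-7 mutant replicate 1 (0.23, adjusted p = 0.0520). The e(y)2 call was lost without FRT control replicate 1 or 2 or mutant replicate 2 or 3 (-0.20 to -0.17), and that of Sgf11 on leaving out any library but FRT control replicate 3 (0.090 to 0.15), which left 2 called members in 5 of those 6 fits.

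In non-stop ovaries the loss of not RNA was accompanied by higher Sgf11 and lower e(y)2. Sgf11 rose from 24.8, 28.0 and 27.9 RPKM to 35.9, 33.4 and 31.6 RPKM, which was 0.31 ± 0.077 (SE) on the log2 scale (limma adjusted p = 0.0119). The e(y)2 level fell from 37.3, 37.2 and 38.5 RPKM to 29.1, 28.7 and 29.3 RPKM, which was -0.36 ± 0.056 (SE) on the log2 scale (limma adjusted p = 0.00149). Both sets of mutant values lay apart from the controls. Atxn7 was at 8.47, 9.29 and 9.34 RPKM in the controls and 11.4, 9.76 and 10.2 RPKM in the mutants, with a log2 fold change of 0.19 that was not called (limma adjusted p = 0.0730, 95% confidence interval 0.011 to 0.37 before adjustment). Thus 3 of 4 members were called and 4 of 4 had groups apart, against 50.8% and 59.9% of 7492 tested genes. Both counts include not, the mutated gene itself, so they are no measure of the module against the background. The called members kept their direction and their call without each library in turn and under both scalings.

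**Figure D2:**
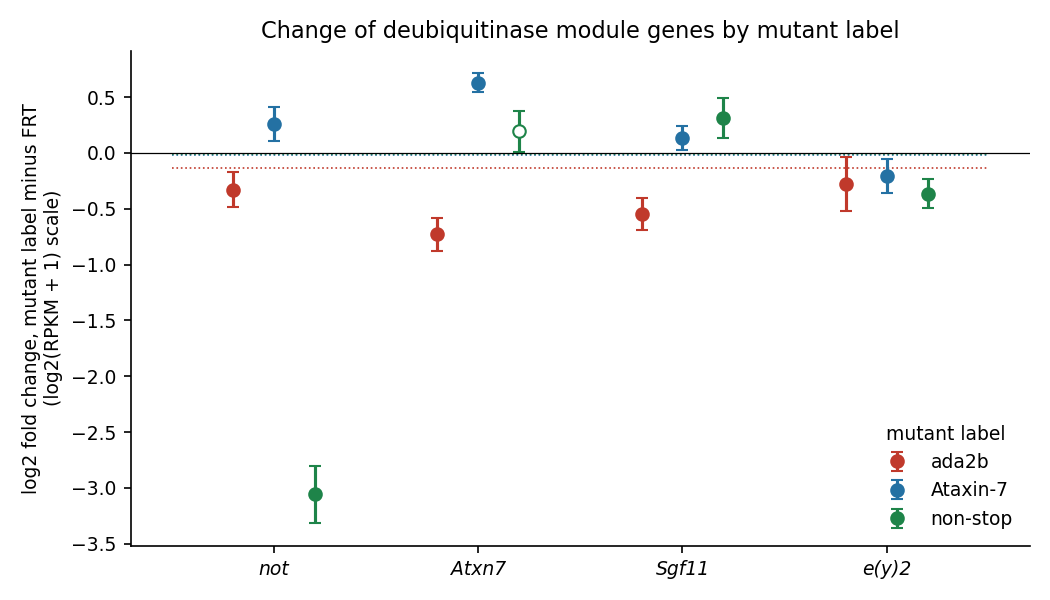
Log2 fold change of each member, mutant minus FRT control on the log2(RPKM + 1) scale, with its 95% confidence interval, for the 3 mutant labels. Filled points were called by limma and the open point (Atxn7 in non-stop ovaries, 0.19) was not, and dotted lines give the median of all tested genes, which was -0.13 in ada2b ovaries. Only e(y)2 lies below 0 in all 3 comparisons. With a library left out, its call was lost in 5 of 6 fits for ada2b and 4 of 6 for Ataxin-7.

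Whether the change of a member differed between experiments was tested as an interaction over the 12 libraries of a pair of experiments. A difference was called for Atxn7 in every pair. Its change in ada2b ovaries was below that in the libraries labelled Ataxin-7, with an interaction of -1.36 ± 0.058 (SE) on the log2 scale (limma adjusted p = 4.55e-08), and below that in non-stop ovaries, with an interaction of -0.92 (limma adjusted p = 1.13e-05). Between the Ataxin-7 and non-stop experiments it differed by 0.44 (limma adjusted p = 0.00179). Sgf11 was likewise lower in ada2b ovaries relative to both experiments on DUB module genes, by -0.68 (limma adjusted p = 1.16e-05) against the libraries labelled Ataxin-7 and by -0.86 (limma adjusted p = 1.87e-05) against non-stop. Between these experiments themselves, the Sgf11 difference of -0.18 was not called (95% confidence interval -0.37 to 0.015).

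The not changes in ada2b ovaries and the libraries labelled Ataxin-7 also differed from each other, by -0.59 (limma adjusted p = 0.000191). Against the non-stop experiment, where not is the mutated gene, they differed by 2.73 and 3.31 (limma adjusted p = 1.92e-07 and 2.94e-08). No difference was called for e(y)2. Its intervals were -0.17 to 0.33 for ada2b minus non-stop, -0.024 to 0.34 for Ataxin-7 minus non-stop and -0.35 to 0.21 for ada2b minus Ataxin-7, and differences within them could not be told from 0. The share of genes called was 70.6% for ada2b minus non-stop, 37.5% for Ataxin-7 minus non-stop and 68.5% for ada2b minus Ataxin-7, and members were called in 3, 2 and 3 of 4 cases. These counts include the genes the labels name, not in the pairs with non-stop and Atxn7 in the pairs with Ataxin-7. Each pair of these interactions shares the libraries of 1 experiment.

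The level of the members in control ovaries was read from the 9 FRT controls, which were heat shocked like the mutants. Their order was e(y)2, Sgf11, not and Atxn7 in all 9 libraries. The e(y)2 level ranged from 34.2 to 46.3 RPKM with a median of 38.5, and that of Sgf11 from 24.8 to 33.3 RPKM with a median of 30.4. The not level ranged from 9.15 to 24.0 RPKM (median 12.8) and that of Atxn7 from 7.59 to 9.68 RPKM (median 9.23), and the ranges of this last pair overlapped. RPKM here divides by a gene length that includes introns for Atxn7. For not the length used, 3324 bp, also exceeds its annotated exons of 2989 bp. Per kilobase of exons the order was the same, with the ranges of Sgf11 and not also overlapping. On that exon scale the members ranked 6, 7, 11 and 15 among 21 SAGA genes and at the 69.4, 59.7, 36.7 and 22.0 percentiles of 7084 genes.

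Of the members, not varied most between the controls. Its mean was 12.9 RPKM in the FRT control of ada2b, 10.2 RPKM in that of Ataxin-7 and 21.1 RPKM in that of non-stop, 2.08 times the Ataxin-7 control. The experiments were normalized separately, and the ratio was 1.96 with scaling factors computed over all 18 libraries and 1.91 with a common median. The 3 groups did not overlap. An exact permutation test gave p = 0.1 for each pair, the smallest possible (0.133 after adjustment over 12 such tests), so the design could not pass the threshold. In the deposited values the other members differed by at most 1.23-fold between controls. The controls also differed in cell type markers. Summed chorion genes were at 3658 to 8123 RPKM in the FRT control of non-stop. They were at 20075.5 to 22644 RPKM in that of ada2b and 21968 to 24016 RPKM in that of Ataxin-7. Summed muscle markers were highest in that of non-stop, at 49.9 to 71.8 RPKM. The part of these differences in the not levels was not tested.

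The genes around the members were read next. At Atxn7, Eogt, which encodes an O-GlcNAc transferase of secreted proteins, starts 590 bp after the end of Atxn7 on the same strand. It was at 17.7, 17.3 and 18.6 RPKM in the FRT control and at 11.8, 10.9 and 10.3 RPKM in the libraries labelled Ataxin-7, where Atxn7 was higher. The change of Eogt was -0.65 ± 0.054 (SE) on the log2 scale (limma adjusted p = 0.000196). In ada2b ovaries Eogt fell together with Atxn7, by 0.92 on the log2 scale (limma adjusted p = 7.19e-05), and in non-stop ovaries its log2 fold change of -0.13 was not called. Its change in the libraries labelled Ataxin-7 differed from that in non-stop ovaries by -0.53 (limma adjusted p = 0.00112). CG15390, which ends 143 bp before Atxn7, had a log2 fold change of -0.13 in the libraries labelled Ataxin-7 and was not called.

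At not, the nearest genes did not follow its loss. CG13380 lies 361 bp away on the side of the 3' end of not and was higher in non-stop ovaries (log2 fold change 0.37, limma adjusted p = 0.0142), a call lost in 2 of 6 fits with a library left out. On the 5' side, 562 bp away on the opposite strand, lies bora, an activator of the mitotic kinase Aurora A. It was at 25.9, 29.5 and 35.9 RPKM in the controls and 33.4, 30.0 and 39.3 RPKM in non-stop ovaries and was not called. In ada2b ovaries bora fell from 29.2, 25.5 and 29.0 RPKM to 5.33, 6.52 and 8.88 RPKM, a log2 fold change of -1.89 (limma adjusted p = 0.000137), while not beside it had -0.33.

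Of 6 genes tested between not and Sgf11 in non-stop ovaries, 3 were called, all higher, close to the background share (50.8% of all tested genes were called). A pair of them, GNBP1 and GNBP2, which encode proteins of a glucan-binding family of innate immune recognition, are named here after their values were seen. GNBP2 was at 0.260, 0.175 and 0.10 RPKM in the controls and 2.50, 2.50 and 2.49 RPKM in non-stop ovaries, a log2 fold change of 1.57. Its controls were under 1 RPKM, and it passed the minimum mean level only through its level in non-stop ovaries. Its call, counted above, is therefore a description and no support. GNBP1 was at 1.70, 1.81 and 1.49 RPKM against 4.65, 4.68 and 4.54 RPKM, a log2 fold change of 1.08 (limma adjusted p = 0.000121). The third, Capr, had 0.29, and its call was lost in 5 of 6 fits with a library left out (0.23 to 0.36).

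**Figure D3:**
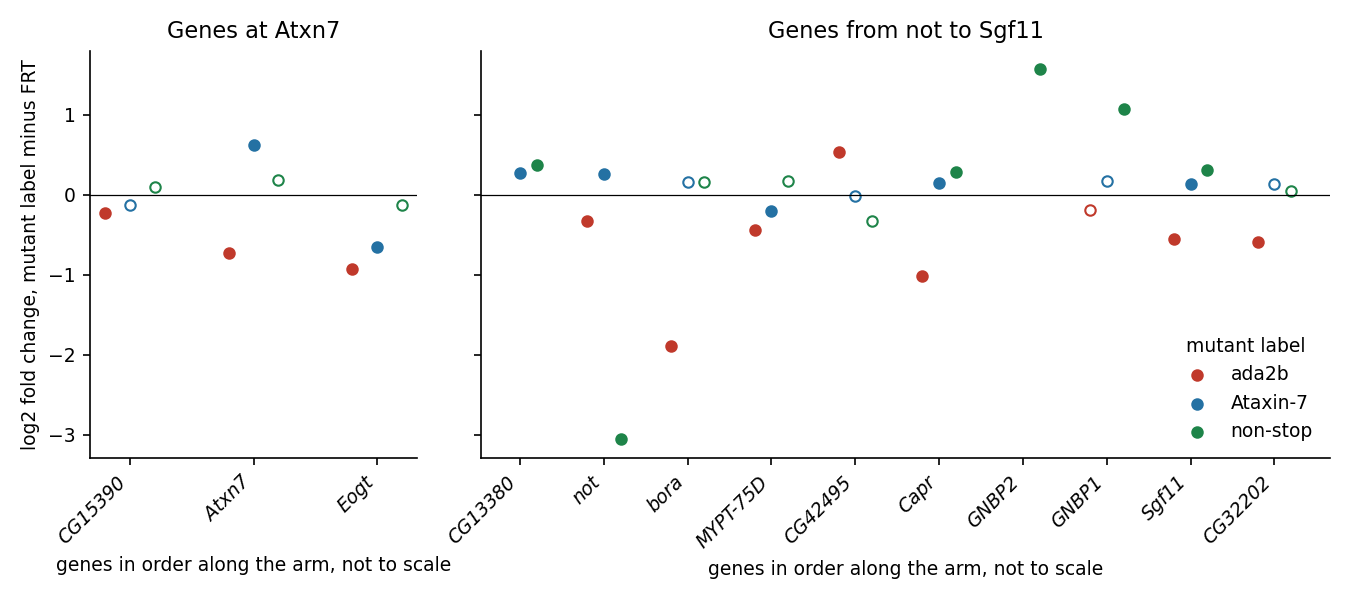
Log2 fold change, mutant minus FRT control, of the genes around Atxn7 (left) and from CG13380 past not and Sgf11 to CG32202 (right), in their order along the arm and not to scale. Filled points were called by limma, and a missing point means a mean under 1 RPKM. In the libraries labelled Ataxin-7, Atxn7 is at 0.63 and Eogt at -0.65, and in non-stop ovaries GNBP2 and GNBP1 are at 1.57 and 1.08 between not at -3.06 and Sgf11 at 0.31. GNBP2 passed the minimum mean of 1 RPKM only through its level in non-stop ovaries.

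The fly genome holds a second copy of the e(y)2 gene, e(y)2b (FBgn0040670, 3R, 7093935 to 7094727, plus strand), which is under the minimum level in every comparison. It was at 0.246, 0.135 and 0.189 RPKM in the FRT control of non-stop, from 3 to 6 reads a library, and at 1.47, 1.54 and 1.29 RPKM, from 33 to 40 reads, in non-stop ovaries. The means differed 7.55-fold, in the opposite direction to e(y)2 in the same libraries. These reads rest on a length of 690 bp, which equals neither the span of e(y)2b (793 bp) nor its exons (662 bp). In the fit with no minimum level, which called 32.5% of 12848 genes, the log2 fold change of e(y)2b was 1.03 (limma adjusted p = 0.000625). The same fits gave 0.23 (limma adjusted p = 0.0550) in the libraries labelled Ataxin-7 and 0.24 (limma adjusted p = 0.157) in ada2b ovaries, and the non-stop change was larger than that in the libraries labelled Ataxin-7 by 0.81 (interaction -0.81, limma adjusted p = 0.000264).

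Even after this change e(y)2b was far below e(y)2, which was at 28.7 to 29.3 RPKM in the same non-stop libraries. It shares 132 bp with Alh on the opposite strand, and Alh also rose in non-stop ovaries, from 2.68, 2.36 and 2.46 RPKM to 4.13, 4.0 and 4.30 RPKM (log2 fold change 0.56, limma adjusted p = 0.00116). The library kit keeps strand, but whether counting used it is not given in the sources used here, nor is how reads shared by e(y)2 and e(y)2b were treated. The part of Alh in the e(y)2b values was not tested.

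**Figure D4:**
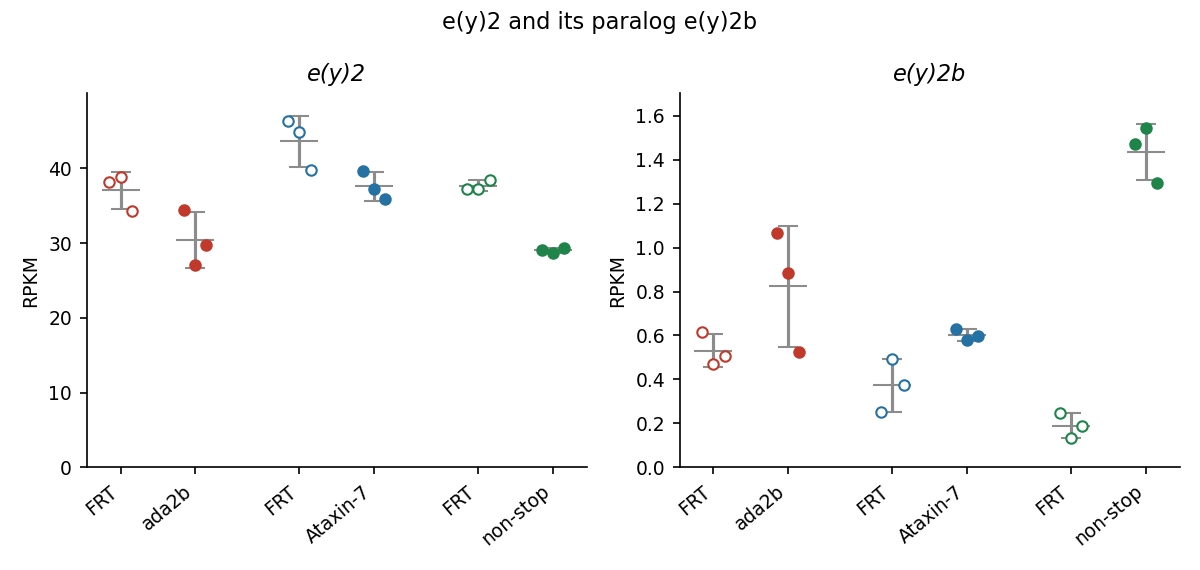
Level of e(y)2 (left) and of its paralog e(y)2b (right) in RPKM, on separate linear axes from 0, in all 18 libraries, with open points for FRT controls, filled points for mutants and grey lines for the mean and SD (n = 3). In non-stop ovaries e(y)2 lies at 28.7 to 29.3 RPKM and e(y)2b at 1.29 to 1.54 RPKM.

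The rest of SAGA was compared as lists. Of the 4 acetyltransferase module genes, 3 fell in ada2b ovaries. They were Ada2b itself, the acetyltransferase Gcn5 (-0.51) and Sgf29 (-0.55), while Ada3 had -0.046. That count includes the mutated gene and was near the background, where 67.9% of tested genes were called and 42.3% called lower. Under a common median or quantile normalization 2 of them, Gcn5 and Ada2b, were still called. None of the 4 was called in non-stop ovaries, where the list median was 0.030 and 50.8% of all tested genes were called, and 1, Ada2b itself, was called higher in the libraries labelled Ataxin-7 (0.13, limma adjusted p = 0.0321), a call lost in 4 of 6 fits with a library left out, against 44.3% of all tested genes called. Under quantile normalization Ada2b was called higher in non-stop ovaries. In the libraries labelled Ataxin-7 that setting called Gcn5 lower beside Ada2b higher.

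The 13 genes of the SPT and TAF modules, which form the scaffold of SAGA, split in both directions. In non-stop ovaries 7 rose and 4 fell, against 50.8% of all tested genes called. Spt20 was highest, from 6.45, 5.70 and 6.48 RPKM to 14.0, 12.8 and 14.5 RPKM (log2 fold change 1.03, limma adjusted p = 0.000101), and Sf3b3, which is also a splicing factor, was lowest at -0.59. Quantile normalization left 3 higher and 3 lower and a common median 3 and 4, and leaving out any library but non-stop mutant replicate 2 left 3 or 4 higher and 3 or 4 lower. Spt20 also rose in the libraries labelled Ataxin-7 (0.44), where 3 genes rose and 3 fell (1 or 2 with any single library left out) and Taf10b was lowest at -0.34. In ada2b ovaries 3 rose, led by Ada1-1 at 0.92, and 6 fell, with wda lowest at -0.87, and these counts became 4 and 4 under a common median. The called shares of the list in ada2b ovaries (9 of 13) and the libraries labelled Ataxin-7 (6 of 13) were near the backgrounds of 67.9% and 44.3%.

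The enzymes that place ubiquitin on H2B, the mark the DUB module removes, were lower in ada2b ovaries. Bre1, the ubiquitin ligase, fell from 34.7, 35.4 and 35.5 RPKM to 14.8, 20.3 and 17.8 RPKM (log2 fold change -0.97, limma adjusted p = 0.00039). The conjugating enzyme Ubc6 fell by 0.41 on the log2 scale, and the Paf1 complex genes atms, Rtf1, Ctr9, hyx and Atu, which assist the ligase during transcription, by 0.40 to 0.70. All 7 listed genes were thus called lower, with a median of -0.63, against 42.3% of all tested genes called lower and a median of -0.13. Under a common median or quantile normalization 5 of the 7, all but Ubc6 and hyx, were called lower.

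In the non-stop experiment 5 of these 7 genes were called, against 50.8% of all tested genes, and in the Ataxin-7 experiment 4 of 7, against 44.3%. Bre1 and Rtf1 were higher and Ctr9 and Atu lower in each. Rtf1 went from 39.7, 40.8 and 50.3 RPKM to 66.9, 62.3 and 67.4 RPKM in non-stop ovaries (log2 fold change 0.58, limma adjusted p = 0.00223) and rose by 0.16 in the libraries labelled Ataxin-7, a call that was lost in 4 of 6 fits with a library left out. Bre1 rose by 0.27 and 0.20. Ctr9 fell by 0.38 and 0.19 and Atu by 0.30 and 0.15 on the log2 scale. The atms gene was also called lower in non-stop ovaries (-0.30). There Bre1 was no longer called under a common median, nor atms and Atu under quantile normalization. The non-stop calls of Bre1 and Atu were each lost in 4 of 6 fits with a library left out and that of atms in 3. In these fits 1 or 2 of the 7 genes were called higher and 1 to 3 lower. The other ubiquitin proteases listed as acting on H2B, scny and Usp7, were not called in the libraries labelled Ataxin-7. The scny gene fell by 0.35 in non-stop ovaries and Usp7 by 0.48 in ada2b ovaries, where under either scaling Usp7 was no longer called and scny was called higher. The Usp7 call was also lost in 3 of 6 fits with a library left out.

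**Figure D5:**
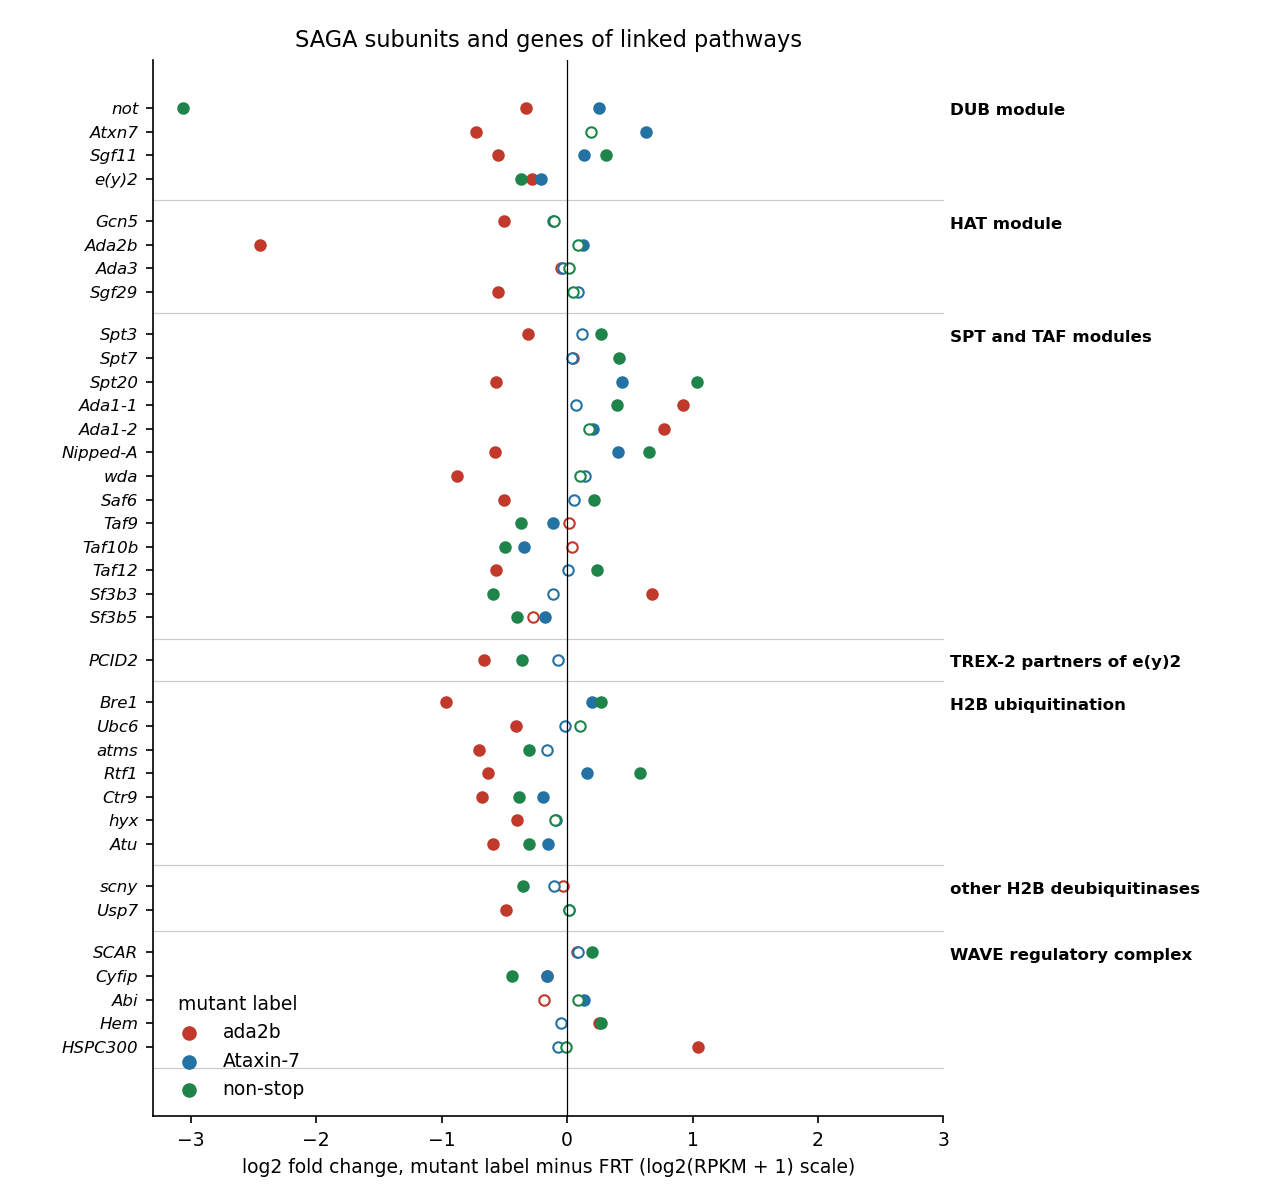
Log2 fold change, mutant minus FRT control, of the DUB module, the other SAGA modules, the TREX-2 partner PCID2, the H2B ubiquitination genes, 2 other H2B deubiquitinases and the WAVE complex. Colours mark the mutant label, and filled points were called by limma. In ada2b ovaries the 7 H2B ubiquitination genes lie between -0.97 and -0.40, and not in non-stop ovaries (-3.06) is the lowest point.

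Partners of single subunits outside SAGA were read last. Of 3 listed TREX-2 partners of E(y)2, PCID2 was matched in the table. It fell in ada2b ovaries, from 29.4, 30.0 and 30.3 RPKM to 18.4, 17.2 and 20.1 RPKM (log2 fold change -0.66, limma adjusted p = 0.000303), and in non-stop ovaries by 0.36 on the log2 scale (limma adjusted p = 0.00737). In the libraries labelled Ataxin-7 its log2 fold change was -0.075 and was not called. The WAVE complex, an activator of branched actin with which Non-stop and Atxn7 are known to associate, had 2 genes higher and 1 lower of 5 in non-stop ovaries, with SCAR at 0.20, Hem at 0.27 and Cyfip at -0.44, of which Cyfip alone was called under both scalings and with any library left out. In the libraries labelled Ataxin-7, Abi was at 0.13 and Cyfip at -0.16, and in ada2b ovaries Hem (0.25) and HSPC300 (1.05) were higher. Ada2b mutant replicate 1 had the highest HSPC300 level, at 58.7 RPKM against 23.5 and 28.0 RPKM in the other mutant libraries, and without it the log2 fold change was 0.66. The Hem call in ada2b ovaries and the Abi call were each lost in 5 of 6 fits with a library left out, and the HSPC300 call in 3. The called genes of this list, 3 of 5 in non-stop ovaries and 2 of 5 in each other comparison, were no larger a part than background in ada2b ovaries (67.9%) and the libraries labelled Ataxin-7 (44.3%), and near it in non-stop ovaries (50.8%).

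The genes whose deviations from their own FRT control most resembled those of each member were listed by Pearson's r over the 18 libraries, as a description. These points share libraries and 3 genotypes, so r mainly follows the 3 mutant means. For not they were bic (r = 0.979), which encodes a subunit of the nascent polypeptide-associated complex, the carbonic anhydrase gene CAH2 and the ribosomal protein gene RpL15 (both 0.967). For Atxn7 they were CG2187 and FBgn0029738 (both 0.987) and CG42233 (0.983), and for Sgf11 CG9646 (0.980), CG5245 (0.978) and CG18476 (0.977). CG2187 moved further than Atxn7 itself, by -3.03 in ada2b ovaries and 2.20 in the libraries labelled Ataxin-7 on the log2 scale. For e(y)2 the values were lower, with the histone variant gene His3.3B (0.912), the mitochondrial phosphatase gene Pgam5 and the SAGA and splicing factor gene Sf3b5 (both 0.903). Among the members, r was 0.85 between Atxn7 and Sgf11, 0.61 between not and e(y)2, -0.42 between not and Sgf11, and between -0.047 and 0.038 for the other 3 pairs.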

How the data were processed

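RPKM values for 18 libraries were used as deposited. In the RPKM the authors deposited, reads on a gene were divided by its length and by a library total corrected with a scaling factor. The submitters' processing notes name CASAVA 1.8.2, TopHat2 2.0.13, edgeR 3.14.0 and the build dm3. Whole reads were recovered for 99.99% of genes above 0 (tolerance 0.02 reads, wider at high counts), and the scaling matched TMM factors within each experiment to 0.0114%, so experiments were normalized separately. For 6861 genes the length equalled the whole span annotated in BDGP6.54, with introns. For 7000 other genes, among them the member not and the paralog e(y)2b, the length was searched for until the reads were whole. Whole reads are no check of the length for those genes. Positions are from BDGP6.54, which holds 15002 of the 15682 identifiers, and not from dm3.

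Mutants were tested against the FRT control of their experiment, and pairs of mutants through an interaction, with limma 3.58.1 (eBayes with a trend, R 4.3.3) on log2(RPKM + 1) for genes whose mean RPKM was 1 or more. Fold changes on this scale understate those of low genes. Calls required an adjusted p (Benjamini-Hochberg, over all tested genes) under 0.05. Permutation tests were exact and two-sided. The labels give biological triplicates per genotype, and chi-square over degrees of freedom between replicates was 8.84 to 365. Members and lists were chosen with earlier results of these data known. Named were the members, genes of the linked lists (of SPT and TAF genes, the called ones with the highest and the lowest change), e(y)2b, genes that overlap or adjoin a member, and the 3 genes most like each member. A planned promoter motif search was not run. Alternatives were no filter, a minimum of 5 RPKM, a pseudocount of 0.1, quantile normalization, a common median, eBayes without a trend, a replicate block, one fit of all 18 libraries, limma voom on recovered reads, a 2-fold minimum, each library left out, exonic length and TMM over 18 libraries. The fits were also run on simulated counts in which few genes changed. That setting differs from these data, so the run is no check of the shares called here. Figures used Python 3.11.15 and matplotlib 3.10.9.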

Additional observations from a re-analysis of the deposited data

Results flagged for a closer look

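The change against FRT differed between experiments for 3 of the members, each time past the limma threshold for an interaction. Of all tested genes, 68.5% were called for ada2b minus Ataxin-7, 70.6% for ada2b minus non-stop and 37.5% for Ataxin-7 minus non-stop. In the pairs with Ataxin-7, Atxn7 is the gene the label names. For Atxn7 the change in ada2b ovaries minus that in the libraries labelled Ataxin-7 was -1.36, that in ada2b minus non-stop ovaries -0.92, and that in the libraries labelled Ataxin-7 minus non-stop ovaries 0.44. For Sgf11 the first of these differences was -0.68 and the next -0.86. For not, they were -0.59 and 2.73, with 3.31 for the libraries labelled Ataxin-7 minus non-stop ovaries, and the last 2 hold the mutated gene itself. All 8 kept their direction and their call without each library in turn and under the 9 other fits run, while a 2-fold minimum kept 1 in each pair of experiments.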

How the results depend on the processing

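The 12 changes of members against FRT were refitted under 180 combinations of gene and setting. Of these, 148 gave the same call, 31 lost it, 1 gained it and none changed direction. Scaling to a common median or quantile normalization left 2 members called in ada2b ovaries, with not at -0.087 and -0.12 and e(y)2 at -0.023 and -0.088. In the libraries labelled Ataxin-7, 2 were called with no filter or in one fit of all 18 libraries. There Sgf11 lost its call with no filter, without a trend and in the fit of 18 libraries (all 0.13), with a common median (0.12) and with voom on recovered reads (0.14), and e(y)2 with no filter and the fit of 18 (both -0.21) and with quantile normalization (-0.14). In ada2b ovaries e(y)2 also lost its call with no filter and without a trend (both -0.28). The fit of 18 libraries called Atxn7 in non-stop ovaries (0.19, adjusted p = 0.00679, against 0.00679 to 0.714 over all settings other than leaving out a library). A 2-fold minimum left 0 members in ada2b ovaries and in the libraries labelled Ataxin-7, 1 in non-stop ovaries and 1 in each of the 3 interactions.

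Leaving out each library gave 2 to 4 called members in the libraries labelled Ataxin-7 and values of -0.37 to -0.20 for e(y)2 in ada2b ovaries, and, in the libraries labelled Ataxin-7, 0.19 to 0.30 for not, 0.090 to 0.15 for Sgf11 and -0.27 to -0.17 for e(y)2. The e(y)2 difference of ada2b minus non-stop, 0.08 and not called, ranged from -0.0079 (without ada2b mutant replicate 1) to 0.16 on leaving out a library and was called at 0.41 with a common median. That of ada2b minus Ataxin-7, -0.07 and not called, became 0.059 with quantile normalization, 0.20 with a common median and ranged from -0.16 to 0.00545 (without ada2b mutant replicate 2) on leaving out a library. The highest minus lowest FRT level of Sgf11, 0.26 on the log2 scale, was 0.37 with a common median and 0.34 with TMM over 18 libraries. In these cases the cause was not tested.

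Alternatives for genes other than members were added after seeing the data. Of 1127 combinations for 76 called changes, 966 gave the same call, 159 lost it and 2 reversed, both for CG15390 in ada2b ovaries (0.012 with quantile normalization and 0.022 with a common median, from -0.23).

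Mutant and FRT libraries share replicate numbers. Deviations of same-numbered libraries correlated at -0.376 to 0.130 over the 3 experiments, not above 0.1 in every pair of any experiment. With 3 libraries per group these values cannot show whether same-numbered libraries were handled together, and the main fits took them as unpaired. With a replicate block, e(y)2 in ada2b ovaries (-0.28, adjusted p = 0.0520) and Sgf11 in the libraries labelled Ataxin-7 (0.13, adjusted p = 0.0896) lost their calls, and no other member's call against FRT changed. In the non-stop experiment e(y)2b rests on 3 to 40 reads a library.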
